A study of Salmo salar with 12 samples.

Results

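The 100 array probes described here gave the largest decreases in the liver of uranium-exposed Atlantic salmon among probes that were detected in every fish. A probe qualified if each of its spots was well above background on all 12 arrays and if its 9 exposed arrays all lay below the lowest of its 3 control arrays. Of 55468 probes on the array, 20456 were detected on every array and 1250 of these (6.11%) lay below every control array. The 100 with the most negative difference between the exposed mean and the control mean were taken. All values are log2 signals relative to the 75th percentile of the probes on the same array, so a negative difference is a decrease relative to the bulk of the transcripts. The members were thus selected on the measured exposed minus control values, so every difference between exposed and control fish below is a description and not a test.

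The fish were parr, the juvenile freshwater stage, kept unfed in lake water in a static, aerated tank in the dark for 48 h. Depleted uranium was added as uranyl acetate dihydrate to 0.25 mg/L (low U), 0.5 mg/L (medium U) or 1.0 mg/L (high U), and the control tank received none (0 mg/L). Total RNA from whole liver of 3 fish per group was labelled with Cy3 and hybridised to 1 array per sample of a custom salmonid design, and each of 3 slides carried 1 array of every group. No replicate tanks are described, so any p-value measures the spread between these samples and not between tanks. In whole tissue, fewer cells of a type and less RNA per cell cannot be told apart. Before scaling, the 75th percentile of the intensity ranged over 55.7 to 73.8 (control), 113 to 138 (low U), 122 to 154 (medium U) and 68.8 to 94.7 (high U). Scaling removes this shared difference in brightness.

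The liver makes most plasma proteins, and these pass through the endoplasmic reticulum (ER) to be folded and secreted. ERN1 (also IRE1) is the ER membrane sensor that detects unfolded proteins and, in mammals and yeast, splices the mRNA of a transcription factor outside the nucleus (XBP1 in mammals). Hepatocytes also oxidise choline and purines, and their transcripts are matured by the spliceosome and their proteins removed through ubiquitin and the proteasome. Members of each of these systems were among the 100 probes.

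The exposed mean lay below the control mean by 1.28 to 3.71 on the log2 scale, which is 2.43-fold to 13.0-fold, with a median difference of -1.47. The upper end rests on a spot marked as an outlier, described below, and the next largest decrease was -3.01 (8.08-fold). In 18 members the difference was -2 or lower, in 27 it lay between -2 and -1.5 and in 55 it was smaller than that. Over all 20456 always-detected probes the median difference was 0.04. The last member, at -1.28, was followed by probes at -1.28 and -1.28 just outside the list, so its lower end is not set off from the probes that come next. The gap between the lowest control array and the highest exposed array ranged from 0.006 to 1.27 and was under 0.25 in 20 members.

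**Figure D1:**
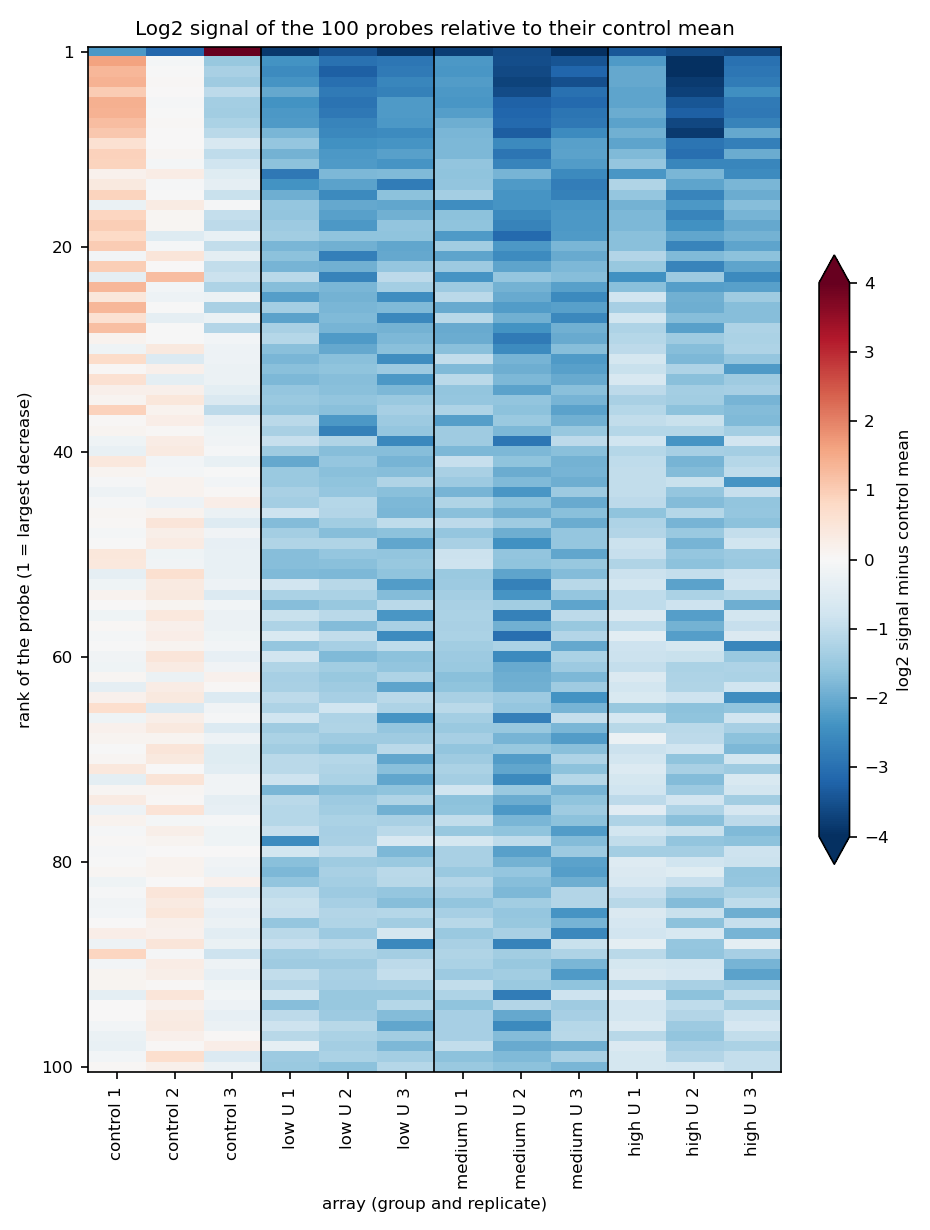
Log2 signal of each of the 100 probes (rows, by rank) on each of the 12 arrays (columns, by group and replicate), minus the mean of the 3 control arrays of that probe; colours stop at 4 in both directions. The 3 control arrays spread most in the upper rows, where control replicate 1 is high and control replicate 3 low, and the medium U columns hold the darkest blue in most rows below.

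The first member rested on 1 spot. Probe CUST_52689 (named as on the array design, without the suffix that all probes share) read 2.48, 1.64 and 10.19 on control replicates 1 to 3. The exposed arrays read 0.92, 1.28 and 0.88 for low U, 1.02, 1.19 and 0.60 for medium U and 1.36, 1.20 and 1.14 for high U. Only control replicate 3 stood far from the rest, and the scanner software had marked that spot as an outlier. Its difference was -3.71 with that spot and -0.99 without it, and the second value would not have placed the probe among the 100.

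The next members fell in step across the control arrays. Probe CUST_42135 read 4.69, 3.01 and 1.56 on control replicates 1 to 3, and 0.70, 0.10 and 0.20 for low U, 0.80, -0.46 and -0.38 for medium U and 0.83, -1.27 and 0.11 for high U. The groups did not overlap, but the control arrays spanned 3.13 log2 units, more than the 2.10 units covered by the 9 exposed arrays. CUST_25778 (3.58, 2.21 and 0.94 in the control, -2.01 to 0.18 with a median of -0.64 in exposed fish), CUST_30683 (3.68, 2.34 and 0.86 against -1.54 to 0.25, median -0.51) and CUST_42668 (2.96, 1.95 and 0.91 against -1.79 to -0.11, median -0.77) had the same order of control arrays. Their differences were -3.01, -2.99, -2.90 and -2.75 in the order given. None of these 5 largest decreases carried a gene name.

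Wide spread between the control arrays went with the largest decreases, which the rule partly builds in. Every exposed array must lie below the lowest control array, so a wide control span by itself enlarges the difference of the means. The control arrays spanned over 2 log2 units in 15 members, 11 of them among the first 20, and in 13 of the 15 control replicate 1 was highest, replicate 2 between and replicate 3 lowest. In 10 of these 15 the lowest exposed array was high U replicate 2. Over all 100 members the control span had a median of 0.72, against 0.56 over always-detected probes and 0.41 over the 1250 probes below every control array. A span over 1 log2 unit was found in 30 members, whose median difference was -2.00, whereas the 70 members with tighter controls had a median of -1.39. Control replicate 3 was the lowest control in 76 members, in 57.4% of the 1250 probes below every control array and in 29.6% of the always-detected probes.

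**Figure D2:**
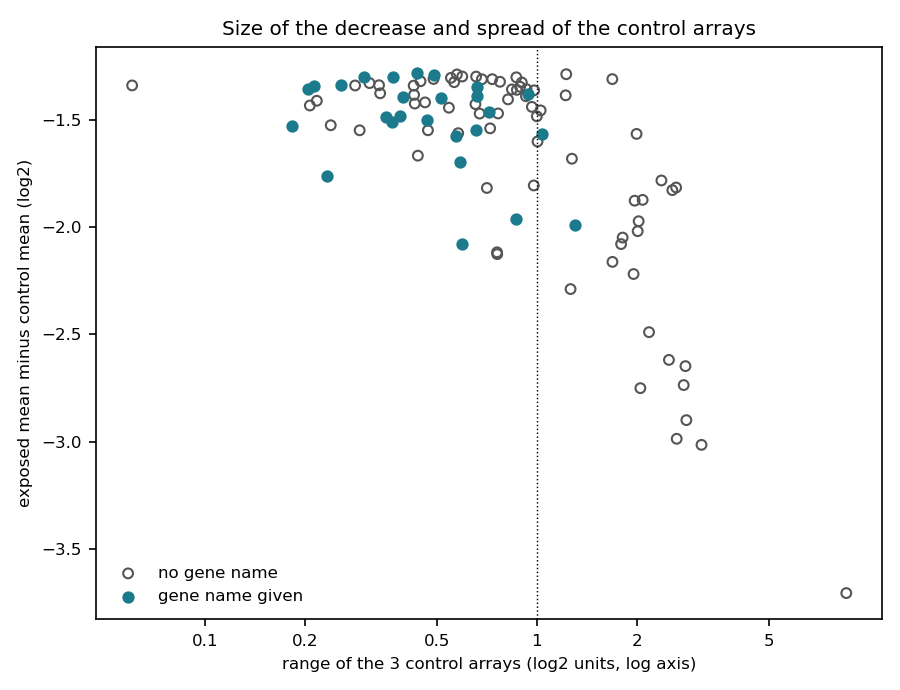
Difference between the exposed and the control mean (y axis, log2) against the range of the 3 control arrays (x axis, log2 units on a log axis) for the 100 probes; filled points carry a gene name and the dotted line marks 1 unit. The probes with differences below -2.4 all lie right of the line and carry no name, and the point at the lower right is CUST_52689.

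Which probes made the list therefore depended on single control arrays. When the same rule was run without control replicate 3, 40 of the 100 were chosen again. All 100 still lay below the remaining control arrays, which their choice fixed, and their median difference was -1.60. Those not chosen again were displaced by probes with larger decreases. Leaving out control replicate 1 or 2 instead gave 61 and 77, and without any single exposed array 85 to 94 were chosen again. What sets control replicate 3 apart was not tested. Each control fish was on a slide of its own, so the controls alone cannot tell fish from slide.

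Gene names came from the study's list of differentially expressed genes, tied to probes by their fold changes, so only probes the study had called can carry one. A gene name was found for 26 of the 100 members, 2 further members were listed as unknown, and 72 had no entry. The named members had tight controls, with a median span of 0.48 and 2 of 26 over 1 unit, against 28 of 74 among the others. The naming favours this, since the study's one-way test finds a difference more readily where the spread within groups is small. Their median difference was -1.47. In a limma fit over all 29456 probes tested, 26 of these 26 and 95 of the 100 members were called lower in exposed fish (adjusted p below 0.05 and at least 1.5-fold), where 5.45% of all probes were. At single doses 72 members were called lower at low U (2.21% of all probes), 91 at medium U (4.9%) and 49 at high U (1.13%). Since the rule used these contrasts, nothing is read from the counts.

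The widest gap between exposed and control arrays belonged to ERN1, the ER sensor described above. ERN1 read -0.19, 0.40 and 0.01 in the control, -1.46, -1.98 and -2.00 for low U, -2.40, -2.29 and -2.26 for medium U and -1.81, -2.21 and -1.62 for high U. The highest exposed array lay 1.27 below the lowest control array, and the difference of the means was -2.08 (4.22-fold lower). This probe had 1 spot and was dim. Before scaling its geometric mean intensity was 69.9 in the control and 28.5 in exposed fish, where the medians over the members were 255 and 122. CREB3L3, an ER-anchored transcription factor that in mammals acts mainly in the liver on lipid and acute-phase genes, read 0.68, 0.72 and 0.37 in the control and -1.33 to -0.25 (median -1.03) in exposed fish, a difference of -1.49. A second CREB3L3 probe outside the list differed by -1.18. Of the 7 tested probes in a list of ER stress and calcium store genes, 4 were called lower and 3 higher, and the 3 higher were SEC61B (1.91), PDIA4 (1.39) and XBP1, the target of ERN1 in mammals, at 2.40. For such counts, here and below, it matters that of all 813 named probes tested 221 were called lower and 541 higher. A probe has a name only if the study called it. The lists were chosen with earlier results of these data known, so no theme is read from the counts.

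**Figure D3:**
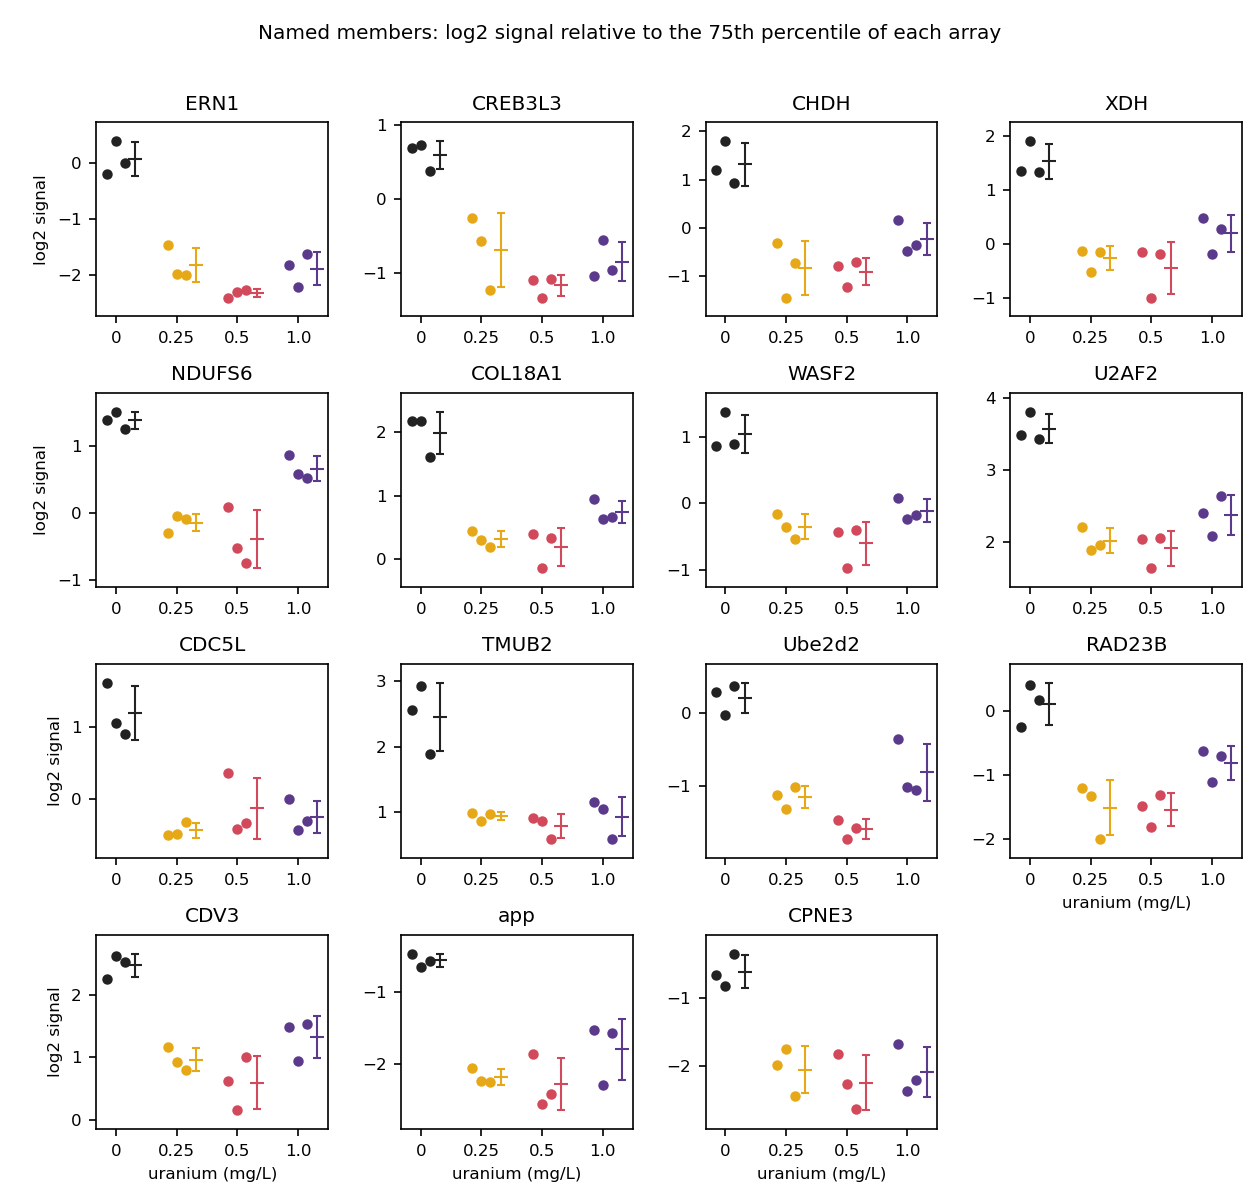
Log2 signal of 15 named members on each array (points) by uranium concentration (x axis, mg/L), with the mean and SD of the 3 arrays of a group beside the points; the y axis differs between panels and gives signal relative to the 75th percentile of the array. In every panel the 3 control points lie above all exposed points, as the rule requires, and in NDUFS6 the high U points lie between the control and the other doses.

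Members with a role in metabolism were choline dehydrogenase, xanthine dehydrogenase and a complex I subunit. CHDH, the mitochondrial enzyme that starts the oxidation of choline to betaine, read 1.20, 1.80 and 0.93 in the control and -1.43 to 0.15 (median -0.70) in exposed fish, a difference of -1.96. XDH, which oxidises hypoxanthine and xanthine to urate, read 1.35, 1.90 and 1.32 against -1.00 to 0.48 (median -0.16), a difference of -1.70. In neither did an exposed array reach the control range, which the rule requires of every member. In both the highest exposed array was high U replicate 1, as it was in 53 of all 100 members. NDUFS6, a subunit of mitochondrial complex I, read 1.38, 1.51 and 1.25 in the control, -0.30, -0.05 and -0.09 for low U, 0.08, -0.52 and -0.76 for medium U and 0.87, 0.58 and 0.51 for high U. Of 15 tested probes in the list of oxidases, dehydrogenases and intermediary metabolism, 8 were called lower and 7 higher, so these 3 members stood among probes of both directions. Probes of the same gene could disagree. Those of ABCC2 differed by -1.27 and 1.79 and those of CPT1A by -0.71 and 1.32, whereas both SLC2A2 probes were higher.

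Members of the matrix and of the actin skeleton were COL18A1 and WASF2. COL18A1, a basement membrane collagen whose end fragment is endostatin, read 2.18, 2.18 and 1.61 in the control and -0.15 to 0.94 (median 0.40) in exposed fish, a difference of -1.57. WASF2, which switches on actin branching through the Arp2/3 complex, read 0.86, 1.38 and 0.90 against -0.98 to 0.08 (median -0.36), a difference of -1.40. In the lists these genes belong to, 6 of 8 tested probes of cell contacts, matrix and proteases and 5 of 6 of the actin and membrane skeleton were called lower, and the remaining 2 and 1 higher. Among all 813 named probes tested, 221 were called lower.

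Of the RNA splicing and processing list, 7 of 8 tested probes were called lower and 1 higher, and 3 of the 7 were members. Among all 813 named probes tested, 221 were called lower, and no enrichment of the list was tested. U2AF2, which recognises the pyrimidine tract before the 3′ splice site, read 3.50, 3.82 and 3.43 in the control and 1.63 to 2.64 (median 2.05) in exposed fish, a difference of -1.48. CDC5L, a core protein of the spliceosome, read 1.61, 1.05 and 0.89 against -0.51 to 0.36 (median -0.35), a difference of -1.46. CDC5L was lowest at low U, unlike most members. The probe described as SNAPC2, a subunit of the complex that starts transcription of small nuclear RNA genes, differed by -1.35, but the ortholog the study assigned to the same row was LYRM4, so its identity is uncertain. Of the list of chromatin and transcription factors, 3 of 6 tested probes were called lower and 3 higher. None of these was a member, but the list matches by symbol and does not hold CREB3L3, NUCKS1 or the members described as a histone H2A and a nuclear receptor co-repressor, which carry no symbol.

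In the ubiquitin and protein turnover list 10 of 12 tested probes were called lower and 2 higher, and 4 were members. The UBR4 probes of this list, which were not members, differed by -1.19 and 1.15. Among all 813 named probes tested, 221 were called lower, and no enrichment of this list was tested. TMUB2, a membrane protein with a ubiquitin-like domain, read 2.56, 2.92 and 1.89 in the control and 0.58 to 1.15 (median 0.92) in exposed fish, a difference of -1.57. RAD23B, which brings ubiquitinated proteins to the proteasome and takes part in nucleotide excision repair, read -0.25, 0.41 and 0.17 against -2.00 to -0.62 (median -1.31), a difference of -1.39. The remaining members of this list have uncertain names. A ubiquitin-conjugating enzyme described as Ube2d2, with UBE2D4 as its assigned ortholog, read 0.28, -0.03 and 0.36 against -1.74 to -0.37 (median -1.13), a difference of -1.39. The last of the 100, described as the F-box protein Fbxo41 but paired with the nuclear import receptor IPO9, read 8.32, 8.47 and 8.04 in the control, 6.78, 6.65 and 7.14 for low U, 6.80, 6.65 and 6.45 for medium U and 7.59, 7.55 and 7.32 for high U.

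The other named members came from several systems. The amyloid precursor homologue app, a membrane protein, was the only member on the list of kinase and growth signalling genes, of which 3 of 4 tested probes were called lower and 1 higher. It read -0.46, -0.64 and -0.56 in the control and -2.55 to -1.53 (median -2.23) in exposed fish, a difference of -1.53. CPNE3, a calcium-dependent phospholipid-binding protein, differed by -1.50 and CDV3 by -1.51. A beta-galactosyltransferase 5, which adds galactose to glycan chains, read 0.88, -0.42 and -0.22 against -3.02 to -1.32 (median -1.81), a difference of -1.99. A leucine-rich repeat protein, assigned to PPP1R37, a regulator of protein phosphatase 1, read 2.01, 1.85 and 1.78 against -0.93 to 0.74 (median 0.07), a difference of -1.76. A further 6 members carried a description outside the naming rule and were chosen after their values were seen. They were a nuclear receptor co-repressor (-1.36), the catalytic subunit of cAMP-dependent protein kinase (-1.34), NUCKS1 (-1.30), a histone H2A (-1.30), VPS4B, an ATPase that takes apart membrane-scission complexes (-1.29), and a probe described as alkbh6 but paired with FAM171B (-1.38).

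Markers of other cell types could hardly be checked, since a marker has a name only if the study called it. None of 21 hepatocyte, 19 leukocyte, 12 endothelial, 10 biliary, 16 pancreatic or 12 muscle markers had a named probe, and the liver label could not be tested in this way. Of 17 erythrocyte markers 1 had a named probe, the beta-globin HBB1, which lay second outside the list at -1.28 (2.90 in the control and 1.62 in exposed fish, means). The part of blood cells in the decreases was not tested. The only named probe of 13 stellate cell and fibroblast markers was COL1A1, which was too dim to be tested.

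The members were spread over the sources the array was designed from. Rainbow trout UniGene sequences carried 24 of the 100, against 20.2% of always-detected probes, Atlantic salmon UniGene sequences 8 against 7.56%, and numbered contigs 68 against 72.3%. No pair of members shared a contig (0 of 100). Antisense probes made up 2 members and 0.626% of always-detected probes (128 of 20456). The antisense probe of contig 5690936 read 1.26, 0.32 and -0.42 in the control and -2.26 to -1.15 (median -1.87) in exposed fish, a difference of -2.16. The sense probe of that contig read 1.29, 1.73 and 0.88 against 1.08 to 1.89 (median 1.67), so its groups overlapped, and differed by 0.32 ± 0.20 (SE, limma adjusted p = 0.319). The antisense probe of contig 5693781 differed by -1.36 and the sense probe by 0.11 ± 0.19 (SE, limma adjusted p = 0.726). In both contigs the antisense probe was lower in every exposed fish, which the rule fixed. The sense probe, which was not selected, was not. The difference between the strands was not itself tested.

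On this scale most members did not fall stepwise with concentration. The array means of the 100 members were 2.61, 2.49 and 2.01 for the control, 0.89, 0.66 and 0.62 for low U, 0.85, 0.25 and 0.45 for medium U and 1.24, 0.63 and 0.80 for high U, while the always-detected probes averaged 1.18 to 1.30 on every array. The dose groups overlapped. The lowest group mean was at medium U in 74 members, at high U in 14 and at low U in 12 members, against 66.2%, 17.6% and 16.2% of the 1250 probes below every control array. Among the 70 members with tight controls it was at medium U in 58 and at high U in 2. A fall at each step from control to high U was seen in 11 members, against 137 of the 1250, and 1 of these had tight controls.

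The choice of members leaves differences between doses free, apart from the condition that all 9 exposed arrays lie below the lowest control array. These differences were tested over all probes. With Benjamini-Hochberg adjustment limma called 0 of 29456 probes (0%) and 0 members between any pair of doses. At an unadjusted p below 0.05, 18 members were higher at high U than at medium U and 0 lower, where 2.47% of all probes were higher and 4.08% lower. Between low and medium U 3 members were lower at medium U (0.917% of all probes) and 0 higher (1.06%), and 5 were higher at high U than at low U (1.44% of all probes) and 0 lower (3.39%). The moderated F-test over the doses gave 10 members at an unadjusted p below 0.05, where 4.37% of all probes passed, and 0 after adjustment. The median difference over the members was 0.44 for high minus medium U, -0.23 for medium minus low U and 0.18 for high minus low U, against medians of -0.03, -0.02 and -0.04 over all probes. Over the 1250 probes below every control array these medians were 0.23, -0.14 and 0.10, so the members shared their direction with the probes that met the same condition. For single members, the 95% interval of a difference between doses reached 0.74 to either side in the median.

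With percentile scaling, on which all values of single members in this paragraph rest, NDUFS6 came nearest to a difference between doses. At high U it was above medium U by 1.05 (95% interval 0.56 to 1.54, limma adjusted p = 0.55), and its 3 high U arrays lay above all 6 arrays at the lower doses. In limma's F-test over the doses it was followed by the Fbxo41 probe and by CUST_31987, a probe listed as unknown, with adjusted p-values of 0.876, 0.999 and 0.999 for these 3 members. CUST_31987 read -2.20, -2.24 and -2.06 for low U, -1.92, -2.55 and -2.17 for medium U and -1.30, -1.40 and -1.26 for high U, so here too the high U arrays lay above all 6 arrays at the lower doses. Between low and medium U, the beta-galactosyltransferase 5 probe had the most negative difference, -1.00 for medium minus low U (95% interval -1.74 to -0.25). ERN1 at medium U was below low U by 0.50 (95% interval 0.002 to 1.00). Like all members, neither passed the adjustment. With arrays scaled to the spike-in probes described below, the median of high minus medium U over the members was -0.32 in place of 0.44. A change of scaling shifts all probes of an array alike, so the 1.05 of NDUFS6 is smaller on that scale. Its value there is not given.

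The order of the doses turned with the scaling. With each array set to its 7 spike-in probes, which carry RNA added in a fixed amount, the lowest mean was at high U in 81 members, at low U in 13 and at medium U in 6. The spike-in scaling lifted the median exposed minus control difference of all tested probes from 0.04 to 0.68, and the low and medium U arrays were the brighter ones before scaling. On that scale the array means of the members were -2.25 ± 0.18 (SD, n = 3) for the control, -3.16 ± 0.09 for low U, -3.10 ± 0.31 for medium U and -3.48 ± 0.26 for high U. The decrease against the control kept its direction in all 100 members, with a median of -0.83 in place of -1.47, and 80 of them were called lower, where 0.659% of all probes were. Spike-in scaling adds about the same amount to the difference of every probe, and the members were chosen as the largest decreases. Their direction was thus largely fixed by the choice, and nothing is read from these counts. With no scaling at all, the mean log2 intensity was lower in exposed fish in 100 members, against 7.34% of the always-detected probes. Every exposed array then lay below the lowest control array in 25 of the 100 members, and in 39 of the 20456 always-detected probes. The members were chosen on these same intensities after scaling, so nothing is read from these shares. Which scaling holds for these samples was not tested.

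**Figure D4:**
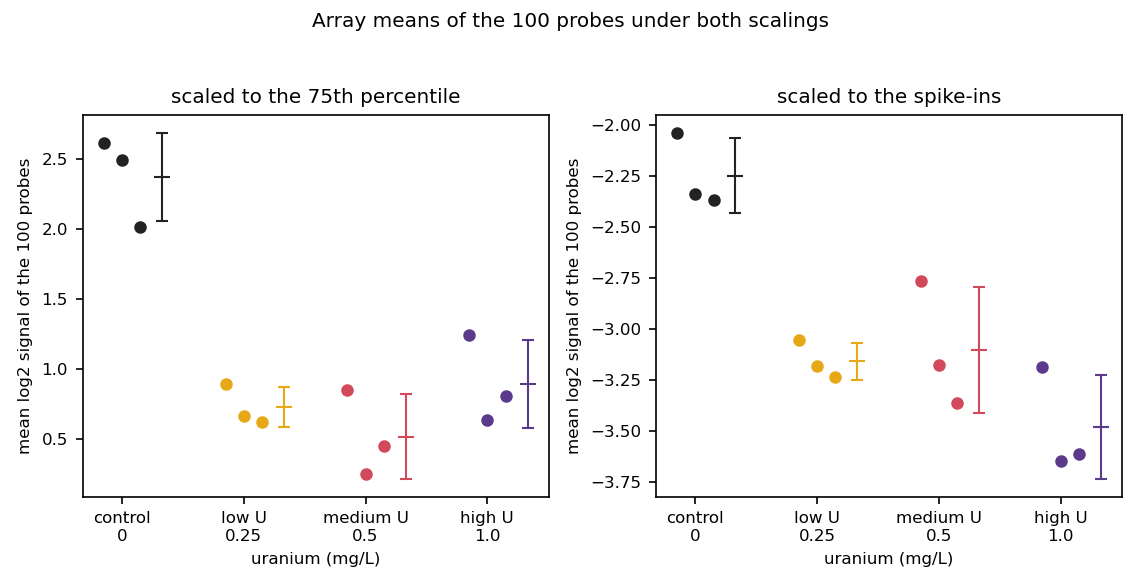
Mean log2 signal of the 100 probes on each array (points) with the mean and SD of the 3 arrays of each group, scaled to the 75th percentile of the array (left) and to the spike-ins (right). The control points lie above all exposed points in both panels, whereas the lowest group mean is at medium U on the left and at high U on the right.

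In some members the exposed arrays of 1 slide stood together, at a share near that of all probes below every control array. Within slides the median difference between the 3 exposed arrays and the control array was -1.74, -1.52 and -1.27 on slides 1 to 3. The slide 1 arrays (low U replicate 3, medium U replicate 2 and high U replicate 2) all lay below the other 6 exposed arrays in 13 members, against 10.0% of the probes below every control array and 6.75% of the always-detected probes. These 13 included all 5 members that limma did not call, CUST_33294, CUST_35770, CUST_45087, CUST_3635 and CUST_34545, whose adjusted p-values were 0.0523 to 0.0911. CUST_45087 read 6.19, 6.56 and 6.10 in the control, 5.66, 5.30 and 3.78 for low U, 5.02, 3.26 and 5.12 for medium U and 5.85, 4.08 and 5.70 for high U. When the fit took the slide as a block, all 100 members were called lower, where 8.8% of all probes were. With percentile scaling, high U lay above medium U in the median member on each slide, by 0.46, 0.44 and 0.39. Medium minus low U was -0.40 on slides 1 and 3 and 0.13 on slide 2. With the spike-ins, the median of high minus medium U over the members was -0.32 in place of 0.44, so its direction depends on the scaling. The medians of single slides are not given on that scale.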

How the data were processed

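Liver RNA of 12 fish was measured on one-colour arrays. The authors scanned the arrays and made, with Agilent Feature Extraction 10.7, the deposited spot intensity, which is background-subtracted and not scaled between arrays. A second deposited table, made by the authors with GeneSpring, holds log2 values of 40267 probes; its normalization method is not stated, and it served as an alternative and for naming. Control spots were left out, log2 intensities were set relative to the 75th percentile of each array, and spots of a probe were averaged (90 members had 1 spot and 10 had 2). For the tests, spots marked as outliers were set to missing, which concerned 1 member, and a probe entered the tests if 1 or more groups had it well above background on each array and every group kept at least 2 values. No spot was saturated (0 on every array). Groups were compared by limma 3.58.1 (lmFit, eBayes, R 4.3.3) over all 12 arrays, adjusted by Benjamini-Hochberg over the 29456 probes tested, two-sided, with a threshold of 0.05 and at least 1.5-fold. The fit was tested on simulated data. The number of arrays limits the precision. Tables and figures used matplotlib 3.10.9, numpy 2.4.6 and pandas 2.3.3 in Python 3.11.15.

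The rule needs detection on every array, so it leaves out probes that dropped below background: 136 tested probes that were not always detected lay below every control array with a larger decrease than the last member. Names were tied to probes by matching the authors' tabulated ratios against the control to those from the log2 table (relative tolerance 2e-05). In the tabulated list, 1995 rows were used here, 509 rows were not used here, and 17 of 927 groups of rows had several matches. The authors' fold changes and p-values served for no other purpose. The members named are the 15 largest decreases with a gene name, every named member on a gene list, genes with 2 or more member probes (0 found), the 3 with the smallest F-test p over the doses and the 5 largest decreases; 1 member that this rule names is not reported here. The members and gene lists were chosen with earlier results of these data known. No gene set was tested. Alternatives changed the background correction, scaling, filter, outlier marks, blocks, test, source and arrays. Normexp was planned on the mean signal, which the files do not give, and was run on the median signal with an offset of 50. Normexp on the median signal, the rule run again without single arrays and the dose order under other settings were added after seeing the data. Probe sequences were not used here.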

Additional observations from a re-analysis of the deposited data

How the results depend on the processing

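All 100 members stayed lower in exposed fish under quantile, normexp and spike-in scaling and in the deposited table, and the median difference moved to -0.83 with spike-in scaling. They were chosen as the largest decreases in the same data, so this direction was largely fixed by the choice. Members below every control array fell to 60 with the spike-ins. Members called lower numbered 95, 32 by the methods' one-way test and 72 (without control replicate 2) to 95 without single arrays. Probes called lower numbered 1604, 576 after normexp, 194 with the spike-ins, 2593 with the slide as a block and 316 by the one-way test, and 525 (without control replicate 2) to 1979 without single arrays, with 796 without control replicate 1. Members called between doses numbered 0, but 5 with the spike-ins, 2 with no filter and 5 by the one-way test, and 0 to 0 without single arrays. The shares of all probes called between doses under these settings are not given, so nothing is read from these counts. Of the 100 members, 65 were chosen again after normexp, 60 with the spike-ins and 40 (without control replicate 3) to 94 without single arrays. The lowest dose mean was at medium U in 74 members and in 6 with the spike-ins. The median ran from -1.60 to -1.37 without single arrays. The cause was not tested. The main fit did not pair the fish by replicate number. Between arrays of different groups on different slides, deviations correlated at -0.27 to 0.13 (median -0.02) for equal numbers. For unequal numbers the median was -0.12. On the same slide the medians were 0.32 for equal and 0.23 for unequal numbers. With the replicate number as a block 91 members and 1421 probes were called lower and 0 members between doses. The fit of only the groups compared was run between doses (0 members), and normexp on the mean signal was not run. Signal over background limited the members to probes detected on every array.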
